A study of Homo sapiens with 6 samples.

Results

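The genes described here are 10 germline genes, DAZL, DDX4, MAEL, SYCP3, SYCP1, TDRD1, PIWIL2, STK31, TEX15 and SOHLH2, read through the ATAC-seq peaks at their loci in naive human embryonic stem (nES) cells. Peaks were taken by position alone. A peak belonged to a gene when it lay inside its GENCODE interval on hg38 or within 10 kb of it, which gave 47 of the 171517 peaks of the table. Of these, 20 lay at the gene's own promoter, meaning that the peak's centre was within 1 kb of one of its annotated transcript starts, 8 at the promoter of a neighbouring gene, 14 elsewhere in the gene body and 5 in the flanks. The peaks were spread unevenly, with 11 at SYCP1, 10 at TDRD1, 5 each at PIWIL2 and SOHLH2, 4 each at DDX4 and TEX15, 3 each at MAEL and SYCP3, and 1 each at DAZL and STK31.

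The study asked how dimethyl α-ketoglutarate (dm-αKG), a cell-permeable form of the metabolite α-ketoglutarate, alters nES cells before they enter the trophectoderm fate. nES cells kept in tt2iLGö medium, a mix of kinase inhibitors and cytokine that holds cells in a pre-implantation state, were freed of mouse feeder cells and plated on laminin. For 24 h they received either 4 mM dm-αKG (3 libraries) or none (3 control libraries). The labels describe the control treatment as DMSO and the study's methods as 0 mM dm-αKG, and both groups otherwise share the same cells and medium. The labels name 1 cell line, H9, for all libraries. In 6 of 6 libraries a check of chromosome content did not match that cell line, so the cells are called nES cells here. The study calls the 3 libraries of a group biological replicates from an experiment performed once, and p-values measure only the spread between them.

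In ATAC-seq a transposase inserts adapters into open chromatin, and the deposited counts are the reads that overlapped each merged peak of about 200 bp. The libraries held 13025674 to 26828622 counts in peaks. Normalized counts below are counts scaled by library size and TMM factor to the mean library of 19511148 counts, so that the 6 libraries can be read side by side. The lowest raw count of a germline gene peak in any library was 3, and 44 of the 47 peaks had at least 10 counts in every library. As a check of the cell label, the promoter peaks of 9 of 10 naive pluripotency markers had a median control level at the 70.3rd percentile of protein-coding genes with a promoter peak, and DPPA3 had no promoter peak. The promoter peaks of 10 markers of trophoblast, endoderm, mesoderm and other cells stood at a median of the 28.0th percentile. They ran from the 9.40th to the 45.3rd and overlapped the naive markers, which ran from the 31.0th to the 94.2nd. Of those 10, 0 fell at an adjusted p below 0.05 in edgeR's quasi-likelihood test, and 1, GATA6, was higher with dm-αKG (log2 fold change 0.31), though its libraries overlapped and its adjusted p was 0.051 with GC-content offsets and 0.125 with DESeq2.

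Most of the 10 genes belong to a group that somatic cells silence through their promoters. Their promoters are rich in CpG dinucleotides, and in somatic cells these are methylated by DNA methyltransferases and bound by the variant Polycomb complex PRC1.6, whose subunits E2F6, MGA and MAX recognize E2F sites and the E-box CACGTG. The genes are switched on in primordial germ cells when DNA methylation is erased genome-wide. Naive pluripotent cells also have low DNA methylation. α-Ketoglutarate is the co-substrate of the TET enzymes, which oxidize methylated cytosine, and of the Jumonji histone demethylases. DNA methylation and RNA were not measured in the libraries analysed here, so the values below are accessibility only.

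The sequences under the peaks that carry the results are printed on the strand of the gene, with CpG dinucleotides in capitals and with annotated untranslated exons left out. Coordinates are on hg38. The first set holds promoter stretches. SOHLH2 is shown because its peak had the largest fall of the promoter peaks, DDX4 and STK31 as the main promoter peaks of those genes, and SYCP3 because its neighbouring peaks behaved differently.
SOHLH2 promoter, chr13:36214589-36214705, minus strand: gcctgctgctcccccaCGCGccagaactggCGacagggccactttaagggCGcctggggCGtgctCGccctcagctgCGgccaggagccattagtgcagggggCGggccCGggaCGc
DDX4 promoter, chr5:55737851-55738016, plus strand: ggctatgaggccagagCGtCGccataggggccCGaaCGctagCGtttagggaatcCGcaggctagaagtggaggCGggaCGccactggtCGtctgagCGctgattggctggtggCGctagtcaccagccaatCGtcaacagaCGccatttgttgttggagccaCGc
STK31 promoter, chr7:23710025-23710202, plus strand: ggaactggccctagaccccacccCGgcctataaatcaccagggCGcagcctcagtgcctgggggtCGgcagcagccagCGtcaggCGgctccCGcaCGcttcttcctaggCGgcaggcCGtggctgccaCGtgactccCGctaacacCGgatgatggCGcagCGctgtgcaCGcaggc
TDRD1 promoter, chr10:114179203-114179269, plus strand: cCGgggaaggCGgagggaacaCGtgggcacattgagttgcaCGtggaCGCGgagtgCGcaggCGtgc
SYCP3 promoter at the start, chr12:101739470-101739596, minus strand: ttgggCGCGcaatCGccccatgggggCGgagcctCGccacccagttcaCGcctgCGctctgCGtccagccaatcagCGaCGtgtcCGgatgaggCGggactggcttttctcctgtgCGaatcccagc
SYCP3 first intron, chr12:101739076-101739283, minus strand: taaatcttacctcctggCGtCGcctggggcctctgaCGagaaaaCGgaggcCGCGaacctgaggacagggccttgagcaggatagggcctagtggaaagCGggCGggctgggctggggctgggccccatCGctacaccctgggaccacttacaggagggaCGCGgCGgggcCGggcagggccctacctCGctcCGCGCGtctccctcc
These stretches hold between 8 CpG in 67 bases at TDRD1 and 17 CpG in 208 bases in the SYCP3 intron. The CpG content of the main promoter peaks was ordinary for promoters. The ratio of observed to expected CpG ran from 0.546 at SOHLH2 to 0.950 at DDX4 and had a median of 0.851 over the 9 genes with a promoter peak, against 0.823 over 16270 protein-coding genes.

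DAZL encodes an RNA-binding protein that germ cells need to enter and complete gametogenesis. It was the gene of the 10 without a promoter peak. Its 3 annotated starts lay 4913 bp, 53764 bp and 54397 bp from the nearest peak. The window upstream of the middle start, from RefSeq's promoter table on GRCh38.p14, is shown because neither peak list reached it.
DAZL promoter window, chr3:16605424-16605673, minus strand: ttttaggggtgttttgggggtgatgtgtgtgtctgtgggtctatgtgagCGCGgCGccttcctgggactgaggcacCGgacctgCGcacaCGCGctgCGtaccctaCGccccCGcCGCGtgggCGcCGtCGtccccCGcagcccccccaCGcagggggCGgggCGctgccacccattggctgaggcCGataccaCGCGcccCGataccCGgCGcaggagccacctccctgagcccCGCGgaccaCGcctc
The 300 bp RefSeq windows at the inner starts of DAZL, from 250 bp before to 50 bp after the start, held 33 and 29 CpG. Their observed to expected ratios were 0.862 and 0.732, the 75.8th and 60.7th percentile of 35116 such windows, whose medians were 0.579 and 14 CpG. The other 9 genes were set above against promoter peaks, with a median ratio of 0.823, so the comparisons have unlike backgrounds. The table holds counts only where a peak was kept in at least 1 treatment, so accessibility at these windows was not measured, and an absent peak does not show closed chromatin. The only DAZL peak, chr3:16665289-16665497, lay in an intron 4913 bp inside the outermost start and held 2 CpG. Its normalized counts were 225, 225 and 219 in control and 205, 228 and 271 with dm-αKG. The groups overlapped, and the log2 fold change was 0.05 (SE 0.11), with an adjusted p of 0.811 by edgeR's quasi-likelihood test.

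Over all 47 peaks, dm-αKG moved some loci down and a few up, with no common direction. A peak was called where its adjusted p was below 0.01 and its log2 fold change lay beyond 1 in size. By this rule 2 of the 47 were less accessible and 0 were more accessible with dm-αKG, beside 1.96% and 0.782% of the peaks of the table and 2.74% in either direction. DESeq2 gave the same counts of 2 and 0. At an adjusted p below 0.05 with no fold threshold, 6 of the 47 were lower and 4 were higher, or 21.3%, beside 10.5% lower, 7.43% higher and 18% in either direction over all peaks. Of the 47, 15 had an unadjusted p below 0.05. The share of all peaks at this level was not counted, and it cannot lie below the 18% that passed after adjustment. The treatments' libraries did not overlap in 14 of the 47 (29.8%), 9 lower and 5 higher, and in 32.4% of all peaks, 16.9% lower and 15.5% higher. The median log2 fold change was 0.02, with 23 peaks below 0 and 24 above, and the range ran from -1.37 to 0.90. The median of all 171517 peaks was 0.01. The share of germline gene peaks that changed was therefore near that of the table.

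**Figure D1:**
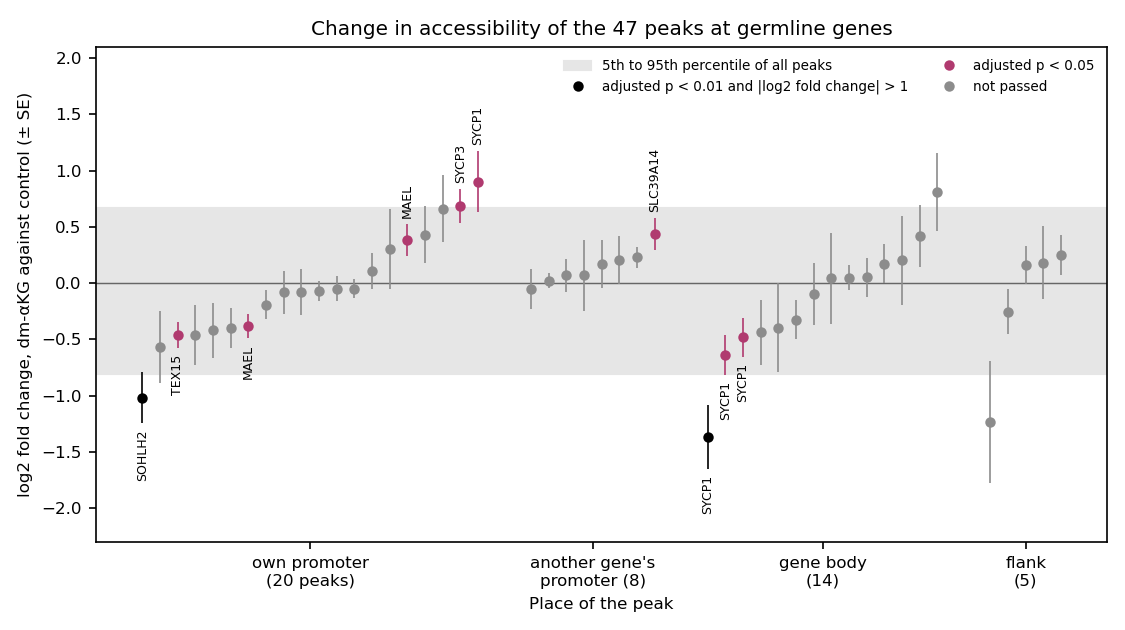
Log2 fold change (dm-αKG against control, ± SE) of each of the 47 peaks, grouped by place and sorted by value; the grey band spans the 5th to 95th percentile of all peaks. The called peaks, in black, are the SOHLH2 promoter and a SYCP1 intron, and most other peaks lie inside the band.

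Among the 20 promoter peaks as many fell as rose. Of them, 3 fell and 3 rose at an adjusted p below 0.05, while 3.86% of the 50907 peaks within 1 kb of a protein-coding start fell and 10.4% rose. The libraries of the treatments did not overlap in 9 of the 20, with 6 lower and 3 higher under dm-αKG, and over those 50907 peaks 8.05% were lower and 21.6% higher without overlap, or 29.6% together. By the call rule above, 1 of the 20 was less accessible, beside 0.316% of the 50907, and 0 were more accessible, beside 0.485%. The median log2 fold change was -0.07 over the 20 and 0.10 over the 50907. Below 0 were 13 of the 20 and 17234 of the 50907. The background depends on GC content. With offsets fitted to the GC content of the peaks, 5.36% of the 50907 fell, 7.23% rose and their median was 0.04, with 22211 below 0. Of the 20, 3 then fell, 2 rose and their median was -0.15, with 13 below 0. The 20 belong to 9 genes, so peaks of the same promoter are not independent of each other, and the difference in direction was not tested. Of the other 27 peaks, 3 gene body peaks fell, all in SYCP1, and 1 peak at the promoter of a neighbour rose.

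**Figure D2:**
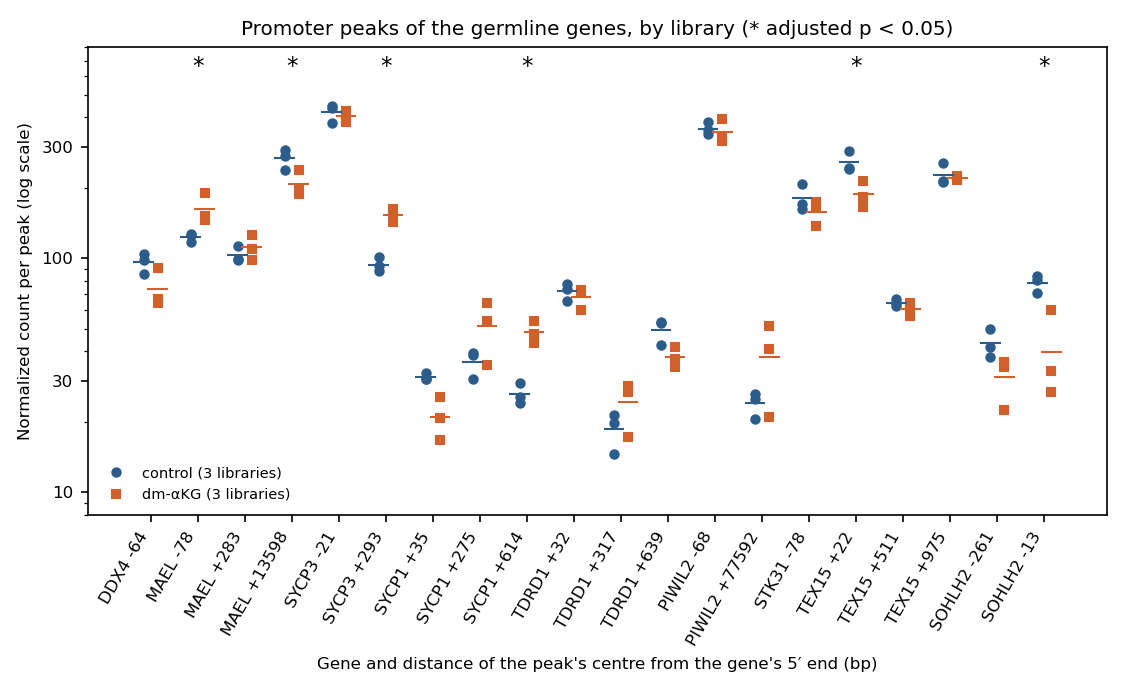
Normalized count (log scale) of each promoter peak in the 3 control (circles) and 3 dm-αKG (squares) libraries, with bars at the means; peaks are named by the distance of their centre from the 5′ end of the gene. Stars mark an adjusted p below 0.05, at MAEL -78 and +13598, SYCP3 +293, SYCP1 +614, TEX15 +22 and SOHLH2 -13.

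SOHLH2, a basic helix-loop-helix transcription factor of spermatogonia and early oocytes, had the promoter peak that fell most. The peak at chr13:36214498-36214705, centred 13 bp upstream of the 5′ end of the gene, had normalized counts of 80.5, 70.7 and 83.8 in control. With dm-αKG they were 33.0, 26.9 and 59.9. All 3 treated libraries lay below all 3 controls, and dm-αKG replicate 3 stood closest to them. The log2 fold change was -1.02 (SE 0.23), with an adjusted p of 0.000468 in edgeR's quasi-likelihood test, and the peak was called. The fold was close to the threshold. It shrank to -0.99 or -0.97 when the first or the third control library was dropped, and to -0.87 or -0.84 for the first or the second treated one. The call was lost each time, while the adjusted p stayed below 0.05. Leaving out the third treated library gave -1.35.

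The adjoining SOHLH2 peak further upstream, chr13:36214746-36214952, went the same way without passing the test. It had 50.1, 41.9 and 37.7 in control and 34.4, 35.9 and 22.5 with dm-αKG, so the groups did not overlap, and its log2 fold change was -0.46 (SE 0.27) with an adjusted p of 0.237 by edgeR. The other 3 SOHLH2 peaks lay in introns and did not pass. Their log2 fold changes ran from -0.44 to 0.81. The highest of them, chr13:36193328-36193527, had a peak in the dm-αKG list only, with 17.0, 22.2 and 9.72 in control and 30.1, 21.8 and 37.4 with dm-αKG.

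TEX15, which acts in meiotic recombination and in the silencing of transposons in male germ cells, had a promoter peak that fell at the start of the gene and did not do so further in. The peak at chr8:30912887-30913086, centred 22 bp inside the gene's 5′ end, had 243, 241 and 287 in control and 166, 183 and 214 with dm-αKG. The groups did not overlap. The log2 fold change was -0.47 (SE 0.12), with an adjusted p of 0.00185 by edgeR, which rose to 0.056 without dm-αKG replicate 1. The broad peak of 596 bp at +975, chr8:30911736-30912331, had 256, 212 and 214 in control and 216, 224 and 220 with dm-αKG, and its log2 fold change was -0.05 (SE 0.11; adjusted p = 0.800, edgeR). The small peak between them had a log2 fold change of -0.08, and the fourth TEX15 peak, far upstream at -6153, one of -0.25, and neither passed.

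MAEL encodes a protein of the germ granule, or nuage, that takes part in transposon silencing by Piwi-interacting RNAs (piRNAs). It has an outer start, which lies close to the start of its neighbour ILDR2, and a group of inner starts. The strongest MAEL peak, chr1:166989080-166989280, lay at the inner starts, 13598 bp into the gene. It had 289, 273 and 239 in control and 197, 189 and 238 with dm-αKG. The lowest control library stood just above the highest treated one, so the groups did not overlap by a small margin. The log2 fold change was -0.38 (SE 0.11; adjusted p = 0.00906, edgeR). Leaving out control replicate 1 raised the adjusted p to 0.095, dm-αKG replicate 1 to 0.074 and dm-αKG replicate 2 to 0.065.

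At the outer MAEL start the direction was the opposite. The peak at chr1:166975403-166975606, 78 bp upstream of the gene and within 1 kb of the ILDR2 start, had 126, 127 and 118 in control and 151, 190 and 145 with dm-αKG. Its log2 fold change was 0.38 (SE 0.14; adjusted p = 0.0454, edgeR), but with GC-content offsets it was 0.20 (adjusted p = 0.337), and DESeq2 gave an adjusted p of 0.117. The next peak, at +283, had 113, 99.5 and 98.4 in control and 110, 126 and 98.8 with dm-αKG. The groups overlapped, and the log2 fold change was 0.10 (SE 0.16; adjusted p = 0.701, edgeR).

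The other genes of the piRNA pathway among the 10, PIWIL2 and TDRD1, had main promoter peaks with small differences. PIWIL2 is an Argonaute protein that binds piRNAs, and its peak at chr8:22275148-22275348, 68 bp upstream of the gene, was one of the most accessible. It had 383, 353 and 340 in control and 318, 328 and 392 with dm-αKG, with a log2 fold change of -0.07 (SE 0.09; adjusted p = 0.651, edgeR). A peak at an annotated inner start of PIWIL2, 77592 bp into the gene, was in the dm-αKG list only. It had 25.0, 26.3 and 20.6 in control and 40.9, 51.3 and 21.0 with dm-αKG. The third treated library stood among the controls, and the log2 fold change was 0.66 (SE 0.30; adjusted p = 0.112, edgeR).

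TDRD1, a Tudor-domain protein that binds methylated Piwi proteins in germ granules, had 3 weak promoter peaks, and the control list alone held them. The peak at the start, chr10:114179203-114179402, had 77.8, 74.0 and 65.6 in control and 71.7, 73.1 and 59.9 with dm-αKG. Its log2 fold change was -0.08 (SE 0.19; adjusted p = 0.817, edgeR). A peak thus left the dm-αKG list while its counts overlapped between treatments. The third, at +639, had 52.8, 53.4 and 42.5 in control and 34.4, 37.2 and 41.9 with dm-αKG, without overlap, and a log2 fold change of -0.42 (SE 0.25; adjusted p = 0.242, edgeR). The second, at +317, had a log2 fold change of 0.30 (SE 0.36), with at most 28.4 normalized counts in any library.

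DDX4, the germ-cell RNA helicase also known as VASA, had 1 promoter peak, chr5:55737851-55738056, centred 64 bp upstream. Its normalized counts were 105, 85.5 and 98.4 in control and 66.7, 64.1 and 91.3 with dm-αKG. Replicate 3 of dm-αKG lay among the controls and the other treated libraries lay below them. The log2 fold change was -0.40 (SE 0.18) with an adjusted p of 0.117 by edgeR. Without dm-αKG replicate 3 it was -0.55 with an adjusted p of 0.036. The other 3 DDX4 peaks lay downstream of the gene and did not pass. The weakest, chr5:55822180-55822379, had 8.05, 9.86 and 21.9 in control and 5.02, 3.85 and 7.48 with dm-αKG, and was in the control list only.

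STK31, a testis kinase with a Tudor domain, had 1 peak in all, chr7:23710025-23710225, 78 bp upstream of its 5′ end. It had 208, 170 and 163 in control and 164, 137 and 174 with dm-αKG. The groups overlapped, with a log2 fold change of -0.19 (SE 0.13; adjusted p = 0.324, edgeR).

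The synaptonemal complex genes moved in both directions. SYCP3 forms the lateral element of the complex, the protein axis that pairs homologous chromosomes in meiosis, and its promoter is shared with CHPT1, a phospholipid synthesis enzyme whose start lies within 1 kb of both SYCP3 promoter peaks. The peak over the SYCP3 start, chr12:101739390-101739596, had 448, 379 and 438 in control and 410, 381 and 428 with dm-αKG, with a log2 fold change of -0.05 (SE 0.09; adjusted p = 0.736, edgeR). The neighbouring peak in the first intron, chr12:101739076-101739283, had 88.5, 101 and 92.3 in control and 143, 153 and 163 with dm-αKG. Every treated library stood well above every control, and the log2 fold change was 0.69 (SE 0.15; adjusted p = 0.00041, edgeR). It passed in all 15 alternative fits, with values from 0.60 to 0.75. The third SYCP3 peak, upstream at -1688, had a log2 fold change of 0.16 and did not pass.

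SYCP1 builds the transverse filaments of the same complex. Its promoter held 3 weak peaks, with differences that ran from below 0 at the start to above 0 further in. The peak over the start, chr1:114854790-114855007, had 32.2, 30.4 and 30.4 in control and 20.8, 16.7 and 25.4 with dm-αKG, without overlap, with a log2 fold change of -0.57 (SE 0.32; adjusted p = 0.216, edgeR). The next, at +275, had 38.5, 39.5 and 30.4 in control and 35.1, 53.9 and 64.4 with dm-αKG, with a log2 fold change of 0.43 (SE 0.26; adjusted p = 0.247, edgeR). The innermost, at +614, chr1:114855374-114855580, had 24.1, 25.5 and 29.2 in control and 53.8, 47.5 and 43.4 with dm-αKG.

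This innermost SYCP1 peak was the one of the 3 to pass. Its treated libraries all lay above the controls, with a log2 fold change of 0.90 (SE 0.27; adjusted p = 0.011, edgeR), which was 0.80 with an adjusted p of 0.092 without dm-αKG replicate 1. These are low counts, since the median peak of the table had 65.3 normalized counts in control.

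The ratio of 2 promoter peaks of the same gene was also read within each library. The peaks of a pair are neighbours at SYCP1, SYCP3 and TEX15, and at MAEL they lie 13676 bp apart at separate starts. The log2 ratio of the innermost to the outermost SYCP1 promoter peak averaged -0.24 ± 0.18 (SD, n = 3) over control libraries and 1.22 ± 0.39 (SD, n = 3) over treated ones. For SYCP3, the intron peak over the start peak gave -2.16 ± 0.23 (SD, n = 3) and -1.41 ± 0.10 (SD, n = 3). For MAEL, the inner start over the outer start gave 1.11 ± 0.09 (SD, n = 3) and 0.36 ± 0.36 (SD, n = 3). In these 3 genes the ratios of the treatments did not overlap. In TEX15 the start peak over the broad inner peak gave 0.18 ± 0.25 (SD, n = 3) and -0.24 ± 0.17 (SD, n = 3), which overlapped. The pairs were chosen after their peaks' values were seen, so the ratios are a description, with no test.

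**Figure D3:**
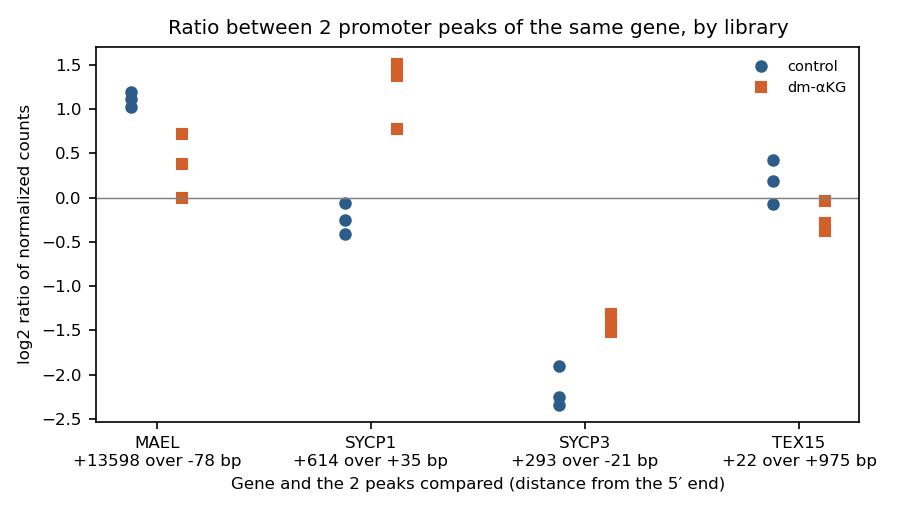
Log2 ratio of normalized counts between 2 promoter peaks of the same gene in each library, control as circles and dm-αKG as squares, with distances from the gene's 5′ end given under each gene. The treatments separate at MAEL, SYCP1 and SYCP3 and overlap at TEX15.

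The strongest change at any of the 47 peaks lay inside SYCP1 rather than at its promoter. SYCP1 had 8 intron peaks, of which 3 fell at an adjusted p below 0.05 and 0 rose, beside 10.5% and 7.43% of all peaks. The 3 lie close together, from +42163 to +47712. The peak at chr1:114896927-114897126, 42163 bp into the gene, had 52.8, 42.7 and 65.6 in control and 19.4, 24.4 and 18.0 with dm-αKG. The groups stood far apart, and the log2 fold change was -1.37 (SE 0.28; adjusted p = 0.000155, edgeR). It was called in the main fit, passed an adjusted p below 0.05 in all 15 alternative fits, with values between -1.51 and -1.21, and had a peak in the control list only.

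A further SYCP1 intron peak, chr1:114902472-114902679, had 93.0, 122 and 120 in control and 81.0, 50.0 and 80.8 with dm-αKG. Its log2 fold change was -0.64 (SE 0.18; adjusted p = 0.00665, edgeR), and leaving out control replicate 2 or dm-αKG replicate 2 raised the adjusted p to 0.059 or 0.097. The peak beside it, chr1:114901825-114902028, had 121, 93.7 and 117 in control and 70.3, 97.5 and 70.4 with dm-αKG, with overlap. Its log2 fold change was -0.48 (SE 0.17; adjusted p = 0.041, edgeR), and it missed the threshold in 7 of 15 alternative fits.

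The sequences of the most strongly changed SYCP1 intron peak and of the one at +47712 are shown because they resemble each other. Capitals mark CpG.
SYCP1 intron peak at +42163, chr1:114896927-114897126, plus strand: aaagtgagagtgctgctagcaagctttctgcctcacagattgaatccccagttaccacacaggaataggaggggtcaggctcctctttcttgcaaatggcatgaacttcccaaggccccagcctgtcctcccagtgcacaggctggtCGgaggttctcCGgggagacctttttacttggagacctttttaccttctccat
SYCP1 intron peak at +47712, chr1:114902472-114902679, plus strand: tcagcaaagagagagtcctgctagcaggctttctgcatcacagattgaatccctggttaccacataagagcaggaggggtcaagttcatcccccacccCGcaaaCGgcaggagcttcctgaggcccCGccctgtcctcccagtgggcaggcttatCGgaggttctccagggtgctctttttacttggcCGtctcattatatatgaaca
A local alignment of these sequences held 147 identical bases in 182 columns, or 80.8%, on the same strand. The next best of the 28 pairs of SYCP1 intron peaks aligned over 49 columns. Whether this resemblance affected where reads were placed was not tested. The other 5 SYCP1 intron peaks had log2 fold changes from -0.40 to 0.20 and did not pass.

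**Figure D4:**
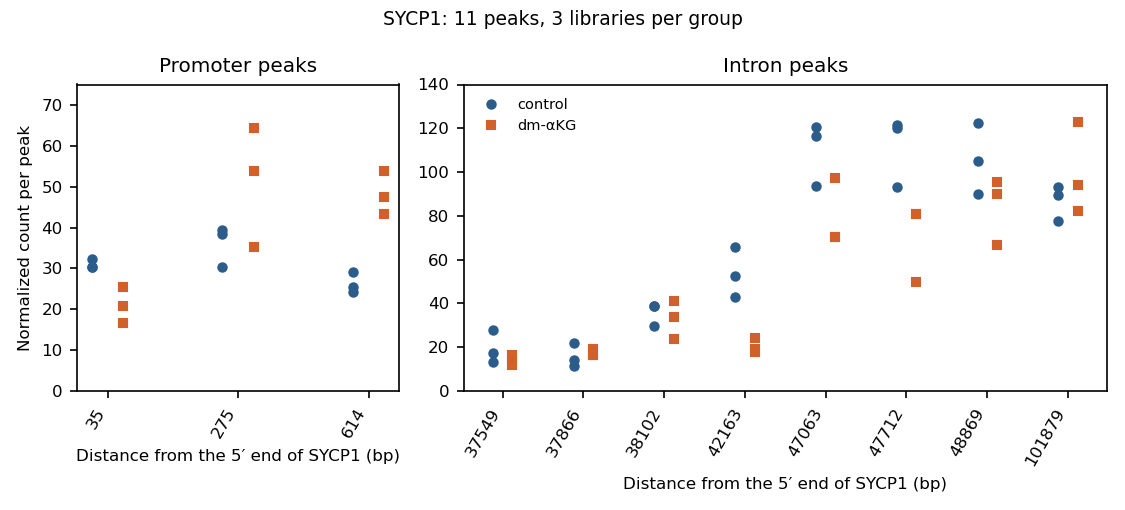
Normalized counts of the 11 SYCP1 peaks in 3 control (circles) and 3 dm-αKG (squares) libraries, by distance from the 5′ end of the gene, with promoter and intron peaks on separate scales. Within the promoter the treated libraries go from below control at +35 to above it at +614, and the intron peak at +42163 falls from between 42.7 and 65.6 to between 18.0 and 24.4.

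A further 8 peaks near the 10 genes lie at another gene's promoter, to which they were assigned by position. Those 5 kb upstream of TDRD1 belong to CCDC186 and include the strongest of the 47 peaks, chr10:114174217-114174421, with 890, 861 and 968 in control and 938, 922 and 891 with dm-αKG. Those downstream of TDRD1 belong to VWA2. None of these 6 passed, and their log2 fold changes ran from -0.05 to 0.20. Downstream of PIWIL2 lie 2 peaks of SLC39A14, a zinc and manganese transporter. The one at chr8:22367369-22367608 had 104, 136 and 108 in control and 161, 153 and 157 with dm-αKG, with a log2 fold change of 0.43 (SE 0.14; adjusted p = 0.0239, edgeR), and it missed the threshold in 6 of 15 alternative fits.

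The promoters of the 9 genes with a promoter peak differed widely in accessibility. Levels here are normalized counts per kb of peak for the promoter peak with the highest mean count of each gene over all 6 libraries. In control SYCP3 stood at 2038 ± 181 (SD, n = 3), PIWIL2 at 1784 ± 109 (SD, n = 3), MAEL at 1329 ± 126 (SD, n = 3) and STK31 at 896 ± 119 (SD, n = 3). Then came DDX4 at 467 ± 47.4 (SD, n = 3), TEX15 at 381 ± 41.5 (SD, n = 3), SOHLH2 at 377 ± 32.8 (SD, n = 3), TDRD1 at 362 ± 31.3 (SD, n = 3) and SYCP1 at 179 ± 24.7 (SD, n = 3). The median of 16270 protein-coding genes was 1367. The place of TEX15 rests on the choice of peak. Its value is that of the broad peak at +975, while the peak at its start, which had the higher count in control, stood at 1285 ± 129 (SD, n = 3), with a library range that overlapped that of MAEL. The library ranges of SYCP3 and PIWIL2 overlapped, as did those of DDX4 and TEX15, of TEX15 and SOHLH2, and of SOHLH2 and TDRD1, so these neighbours did not differ beyond their spread. The other neighbours in the order were separated.

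Among those 16270 genes, SYCP3 stood at the 71.2nd percentile in control, PIWIL2 at the 64.1st, MAEL at the 48.6th and STK31 at the 31.8th. DDX4 stood at the 14.6th and SOHLH2 at the 10.5th, and TEX15 at the 10.7th by its broad peak or at the 46.8th by its start peak. Lowest were TDRD1 at the 9.93rd and SYCP1 at the 2.3rd. With dm-αKG, SOHLH2 moved from 377 to 192 ± 84.3 (SD, n = 3) per kb, from the 10.5th to the 2.65th percentile. MAEL moved to 1034 ± 131 (SD, n = 3), the 36.1st percentile. SYCP3 has its level at a promoter shared with CHPT1, and reads there cannot be assigned to either gene.

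Several of these promoters held the E-box CACGTG, the site of MYC and MAX family factors, of MGA with MAX, and of many other helix-loop-helix factors. The 30 bases around each are shown on the gene's strand, with the E-box in capitals.
SOHLH2, chr13:36214525-36214554, minus strand: cccaggacccagCACGTGcgcagcggccat
DDX4, chr5:55738027-55738056, plus strand: gtgggcgtcttgCACGTGcagccgtttaag
STK31, chr7:23710140-23710169, plus strand: ggccgtggctgcCACGTGactcccgctaac
TDRD1, first, chr10:114179210-114179239, plus strand: aggcggagggaaCACGTGggcacattgagt
TDRD1, second, chr10:114179230-114179259, plus strand: cacattgagttgCACGTGgacgcggagtgc
The start peak of TEX15 held a further one. In all, 5 of 20 germline promoter peaks, or 25%, held CACGTG in the 200 bp around their centre, against 4.82% of the 50907 promoter peaks of the table. CACGTG is its own reverse complement, so both strands read the same. The sites lay within 63 bp of an annotated start, at 17 bp and 1 bp downstream for SOHLH2 and DDX4 and at 49 bp, 46 bp, 26 bp and 63 bp upstream for STK31, TDRD1, TDRD1 and TEX15. RefSeq's promoter windows, held for 8 of the 10 genes, also had CACGTG at the inner start of MAEL and at the innermost start of DAZL, and 7.26% of all windows had it.

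The 5 germline promoter peaks with an E-box all had log2 fold changes below 0, from -1.02 to -0.08 with a median of -0.40, and 2 of them, SOHLH2 and TEX15, passed. The 15 without had a median of -0.05, with 8 below 0. Over the whole table, promoter peaks with and without CACGTG had nearly the same medians, 0.09 over 2453 and 0.10 over 48454. Of them, 34.2% and 33.8% were below 0, and 3.51% and 3.88% fell at an adjusted p below 0.05. The motif therefore did not mark falling promoters in general, and its part in the values of these 5 was not tested.

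The other motifs searched, each on both strands, rested on few peaks. GCGGGAA, a core of the E2F site, lay in 1 of 20 peaks, SYCP1 at its start, against 5.93% of promoter peaks. TCACACCT, a T-box site, lay in 0 of 20 and in 0.613%, and TGACGTCA, the CRE site, in 0 of 20 and in 0.988%. CCAAT, the NF-Y site, lay in 6 of 20, or 30%, and in 18.4%. None of these motifs contains another.

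Wider lists of germline genes were read in the same way, with 1 promoter peak per gene, the one of highest mean count. Over 16270 protein-coding genes, 4.88% of such peaks fell and 8.76% rose at an adjusted p below 0.05. Their median log2 fold change was 0.05, with 6200 of the 16270 below 0. With GC-content offsets the split turned round, to 8.78% that fell and 4.9% that rose. The median was then -0.02, with 8904 of the 16270 below 0, so each list is given under both fits. Of the 10 genes, 9 had a peak, 2 fell, MAEL and SOHLH2, 0 rose, and the median was -0.08 with 8 of 9 below 0. TEX15 is counted here by its broad peak at +975, and with a promoter window of 500 bp it is counted by its start peak, so that 3 of 9 fell. With the offsets the counts were the same and the median was -0.17. Of 20 further genes of meiosis, all with a peak, 2 fell and 3 rose, with a median of 0.06, and with the offsets 3 fell and 2 rose, with a median of -0.04. Of 16 further genes of the piRNA pathway, 13 had a peak, 1 fell and 0 rose, with a median of -0.31 and 10 of 13 below 0. With the offsets 5 of these 13 fell, 0 rose, the median was -0.40 and 12 of 13 were below 0. Of 16 other germ cell genes, 13 had a peak, and 3 fell and 1 rose in both fits, with medians of -0.002 and -0.02.

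Named members show the spread within these lists. Among the meiotic genes, SYCE1, a central element protein of the synaptonemal complex, fell (log2 fold change -0.45), as did REC8 (-0.27), the meiotic cohesin subunit. SYCE3, another central element protein, rose (0.29), as did HORMAD1 (0.49), a chromosome axis protein, and SMC1B (0.43), a meiotic cohesin subunit whose promoter is shared with RIBC2. In the piRNA list MOV10L1, the helicase that starts piRNA processing, fell (-0.61), though its libraries overlapped. Among germ cell genes CTCFL, the testis paralogue of CTCF, fell (-0.77), as did the male germ cell regulator NANOS2 (-0.51) and ADAD1 (-0.88), while NANOS3 (0.48), which keeps primordial germ cells alive, rose. The ADAD1 peak was weak, with 38.5, 34.5 and 51.0 normalized counts in control and 30.1, 6.41 and 26.9 with dm-αKG. Its adjusted p was 0.036 by edgeR, and dm-αKG replicate 2 was far the lowest. GTSF1, FKBP6, RNF17, SOHLH1, TEX101 and DPEP3 had no promoter peak.

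**Figure D5:**
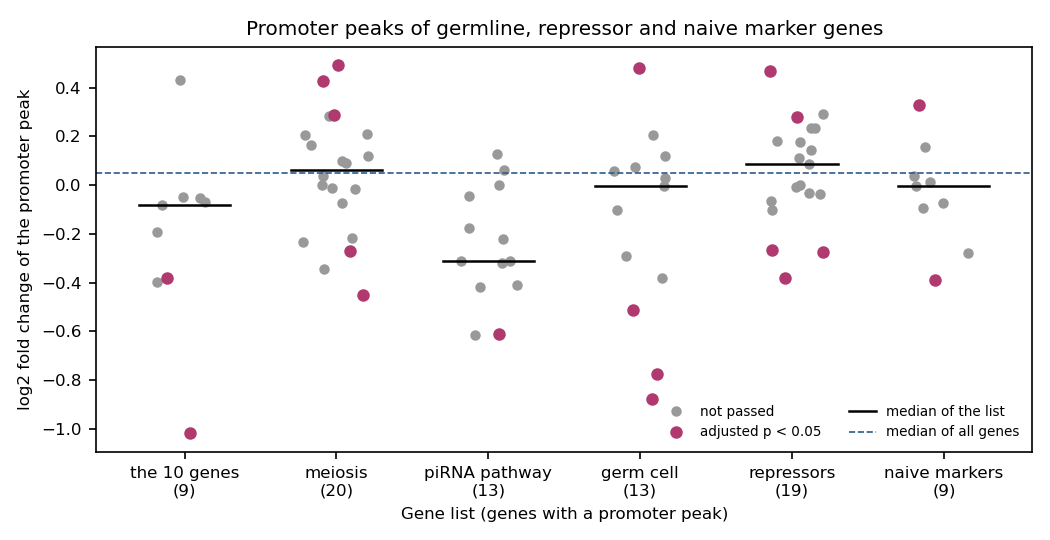
Log2 fold change of the promoter peak of each gene in 6 lists, with red points at an adjusted p below 0.05, black bars at list medians and the dashed line at the median of all protein-coding genes. The piRNA list has the lowest median, -0.31, and and every list has members on both sides of 0.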

How the data were processed

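The ATAC-seq libraries of 3 control and 3 dm-αKG samples were assigned to treatments from the labels. The authors demultiplexed reads with bcl2fastq 2.20.0.422, trimmed them, aligned them to hg38 with Bowtie 2, filtered them in the ENCODE ATAC-seq pipeline, called peaks with MACS2 and kept reproducible ones per treatment. They shortened these to 200 bp at the summit, merged both lists and counted reads with bedtools 2.28.0. The deposited counts carry no normalization. The deposited peak lists give each peak's fold enrichment over background as a ratio and its q-value as −log10, used only to see which treatment's list held a peak.

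Differences between treatments were fitted on all 171517 peaks with edgeR 4.0.16 (R 4.3.3; TMM scaling, quasi-likelihood test, no covariates), and p-values were adjusted by Benjamini-Hochberg over the table. The standard error is the size of the fold change over the root of F. A permutation of 3 against 3 libraries cannot go below 0.10 and was not used. On simulated data with 50 peaks changed per fold, an adjusted p below 0.05 recovered 28% at 1.5-fold, 76% at 2-fold and 96% at 4-fold, with 8 false calls in 171517. The changed peaks were drawn from those above a minimum mean count. They were far fewer than the 30790 peaks, or 18%, that passed in the data. Adjustment was therefore stricter in the simulation, and its shares do not measure recovery in these data. Starts are from GENCODE 44, and sequences from hg38 or RefSeq.

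The members and lists were chosen with earlier results of these data known. All 10 genes are named, each with its strongest promoter peak by mean count, every peak called or at an adjusted p below 0.01, up to 3 per gene at 0.05, and neighbours sharing a promoter. Others are named to make peaks of a locus complete. Of other lists, genes at an adjusted p below 0.05 are named. Alternatives were loess offsets on GC content or abundance, RLE, upper-quartile or total-count scaling, DESeq2 1.42.0, a count minimum of 10, other distances and thresholds, the replicate number as a block, and each library left out.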

Additional observations from a re-analysis of the deposited data

How the results depend on the processing

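Of 256 repeats of single-peak values under the alternatives, 223 kept direction and side of an adjusted p of 0.05, 28 fell short of it, 2 passed it and 3 changed sign. Those 3 stood near 0 and crossed it when 1 library was left out. SYCP3 at its start ranged from -0.12 to 0.0045, PIWIL2 from -0.16 to 0.0022 and TEX15 at +975 from -0.10 to 0.051. The SYCP3 intron peak and the SYCP1 peak at +42163 passed throughout. RLE, total-count and upper-quartile scaling, abundance offsets and a minimum of 10 counts changed none of these single-peak calls.

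Counts moved more. With DESeq2, which gave no adjusted p for 6652 peaks, 793 peaks of the table were called more accessible in place of 1342, 2 of the 47 rose in place of 4, 2 genes of the other germline lists rose in place of 4, and 1 repressor gene fell and 1 rose in place of 3 and 2. With GC-content offsets 11 genes of the other germline lists fell in place of 6 and 1 repressor gene rose, and of all called peaks 60.9% were less accessible in place of 71.5%. Within 50 kb of the genes there were 119 peaks, of which 14 fell and 10 rose. When the fold was ignored at an adjusted p of 0.01, 5 of the 47 fell and 1 rose. The peaks of the table were not counted at that threshold, so these have no like share beside them. Over all peaks 18047 fell and 12743 rose at 0.05. Under RLE, total-count and upper-quartile scaling and abundance offsets 2 repressor genes fell, MGA no longer among them. The causes were not tested.

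Leaving out each library in turn gave 2771 to 3827 peaks of the table called less and 1043 to 1462 called more accessible. Of the 47, 1 to 2 were called less and 0 more accessible, 3 to 6 fell and 1 to 5 rose at 0.05, with the lowest of both without dm-αKG replicate 1. Of the 10 genes' promoters 1 to 3 fell and 0 rose, of the other germline lists 5 to 9 fell and 2 to 5 rose, and of the repressors 1 to 2 fell and 0 to 3 rose.

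Deviations of same-numbered libraries correlated at -0.016, -0.00090 and 0.013, so no shared effect of the replicate number was seen. Whether the libraries were collected in pairs is not given by the labels. With the replicate number as a block, 6 of the 47 fell and 4 rose, 2 were called, and the table gave 3297 and 1304 called peaks. With the block and GC offsets together, 2 of the 47 rose, 11 genes of the other germline lists fell and 1 repressor gene rose.

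The SYCP1 promoter peaks rest on 13 to 75 reads a library. In the simulation 28% of 1.5-fold changes were recovered. Its changed peaks were drawn above a minimum mean count, so this share does not cover the weakest peaks. Far fewer peaks were changed in it than passed in the data, so its adjustment was stricter and the share is not that of the data.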

Other observations

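The factors that hold the germline genes silent in other cells were read at their own promoters. Of 19 genes for subunits of PRC1.6, SETDB1 and the DNA methylation machinery, 3 fell and 2 rose at an adjusted p below 0.05 by edgeR. Of all genes with a promoter peak 4.88% fell and 8.76% rose. The median log2 fold change of the 19 was 0.09. With GC-content offsets 3 of the 19 fell and 1 rose, beside 8.78% and 4.9% of all genes, and the median of the 19 was 0.0036. DNMT1, the methyltransferase that copies methylation after replication, had 241, 252 and 243 normalized counts in control and 186, 199 and 181 with dm-αKG, without overlap, and a log2 fold change of -0.38 (SE 0.11; adjusted p = 0.0106, edgeR). MGA, the scaffold of PRC1.6, had 330, 289 and 339 in control and 287, 237 and 262 with dm-αKG, and a log2 fold change of -0.27 with an adjusted p of 0.0498. MGA missed the threshold under RLE, total-count and upper-quartile scaling and abundance offsets, with adjusted p from 0.051 to 0.073, with DESeq2 (0.138), and when any of 4 libraries was left out.

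Other subunits differed in direction. L3MBTL2 had 617, 516 and 483 in control and 635, 659 and 680 with dm-αKG, with a log2 fold change of 0.28 (adjusted p = 0.0055, edgeR). Of the ubiquitin ligases of Polycomb complexes, RNF2 was at -0.27 (adjusted p = 0.033, edgeR) and RING1 at 0.47 (adjusted p = 0.029, edgeR). With DESeq2 1 of the 19 genes fell and 1 rose. Without control replicate 3, 1 fell and 0 rose, so these calls did not all hold. Promoter accessibility is not expression, and these values say nothing of protein levels. Of the 9 naive markers with a promoter peak, KLF17 fell (-0.39) and SUSD2 rose (0.33), both without overlap between treatments. The other 7 did not pass an adjusted p of 0.05 by edgeR, and the median of the 9 was -0.0054. Of all genes with a promoter peak 4.88% fell and 8.76% rose.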
